A study of Mus musculus with 8 samples.

Results

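Imprinted genes are transcribed mainly from the copy inherited from a single parent. The values described here are those of 40 mouse genes: 38 imprinted genes that lie outside the Dlk1-Dio3 domain, and Zfp57 and Zfp445, which encode zinc finger proteins that protect imprints. They were chosen by symbol from the 32285 genes counted in single cells of embryonic kidneys, and all 40 symbols were found. The cells described came from the kidneys of 4 embryos, labelled male, in a single pool, at E17.5 by the labels and a day later by the study's text. Mice 1 and 2 carried homozygous Trim28Δ/Δ (ko in the list of tags) and mice 3 and 4 were Trim28f/f controls (wt in that list). In the ko mice the floxed segment of Trim28 was removed by Six2-cre, a transgene that drives Cre recombinase in nephron progenitors, so that these cells and their descendants (podocytes and the tubule from the proximal to the distal part) form the deleted lineage. Stroma, ureteric bud and endothelium lie outside it. The controls' Cre status is not given in the labels.

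At an imprinted locus the parental copies differ by DNA methylation of a control region. ZFP57 and ZFP445 bind the methylated copy and recruit TRIM28, which in turn brings the histone methyltransferase SETDB1 and DNA methyltransferases, and the mark is thereby kept through the divisions of the early embryo. Among the genes best known for growth control, the growth factor Igf2, Mest, Peg3 and the zinc finger gene Plagl1 are read from the paternal copy. The non-coding RNA H19, the cyclin-dependent kinase inhibitor Cdkn1c (p57) and, in most tissues, the receptor adaptor Grb10 are read from the maternal copy. The deposited counts do not tell the parental copies apart, so that the values below are totals of both.

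The counts are unique molecular identifiers (UMIs), that is, single captured RNA molecules, read at the 3′ end. The pool also held 4315 cells with 1 of 4 tags that the deposited list does not name. They were not used here, but free RNA of the pool may come from them too. Cells could be assigned to the named mice by a tag on their membrane, which gave 1438 and 1553 ko cells (mice 1 and 2) and 2095 and 1751 wt cells (mice 3 and 4), with median depths between 16476 and 17154 UMIs. The cells fell into 23 clusters, which were formed without the 40 genes, and 18 classes held at least 10 cells in every mouse. A class is called after a cell type only where its markers led it, and otherwise by its cluster number. Levels are counts per 1000000 UMIs (CPM) of a class in a mouse. Mouse 3 stood apart: it gave 168 of the 171 cells of cluster 14 and only 3 cells of the collecting duct-like class. Values without it are given for the genes that passed, and those without mouse 4 where it moved a value strongly. RNA outside cells was measured in 353040 barcodes of 10 to 100 UMIs and is called free RNA. Trim28 itself, in CPM normalised between the mice, fell in NPC-like and PT-like cells of the deleted lineage. In podocyte-like and distal tubule-like cells, of the same lineage, no gene passed in a list of imprint maintenance genes that holds Trim28. In NPC-like (nephron progenitor) cells it was at 41.6 and 29.7 CPM in the ko mice and 147 and 171 CPM in the wt mice (log2 difference -2.17, SE 0.21, adjusted p = 0.0038). In PT-like (proximal tubule) cells it was at 19.95 and 20.7 against 60.4 and 69.9 CPM (log2 difference -1.68, SE 0.16, adjusted p = 0.0035). In stroma-like cells the ko mice had 108 and 104 CPM and the wt mice 87.2 and 118 CPM, which overlap. The 3′ end that these reads cover lies outside the floxed segment, so that the counts do not check the deletion itself.

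Across the kidney, most of the 40 genes were at low levels, and the high ones were led by different classes. In 19 genes the mean over the 4 mice reached 50 CPM in some class, and the other 21 stayed at or below 49.3 CPM. The 40 genes together took between 0.138% of all UMIs in erythroid-like cells and 1.85% ± 0.53 (SD, n = 4) in podocyte-like cells. NPC-like cells held 0.478% and 0.454% in the ko mice against 0.430% and 0.401% in the wt mice, and PT-like cells 0.190% and 0.194% against 0.238% and 0.237%. The direction of this share was thus opposite in the progenitors and in the proximal tubule, with no overlap between genotypes in either. Of all single genes, 40.5% did not overlap in NPC-like and 42.8% in PT-like cells. Markers of red cells stood at 5.71% and 2.09% of their free RNA level in ko PT-like cells and at 15.9% and 13.97% in wt. The part of free RNA in the share of the 40 genes was not tested.

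**Figure D1:**
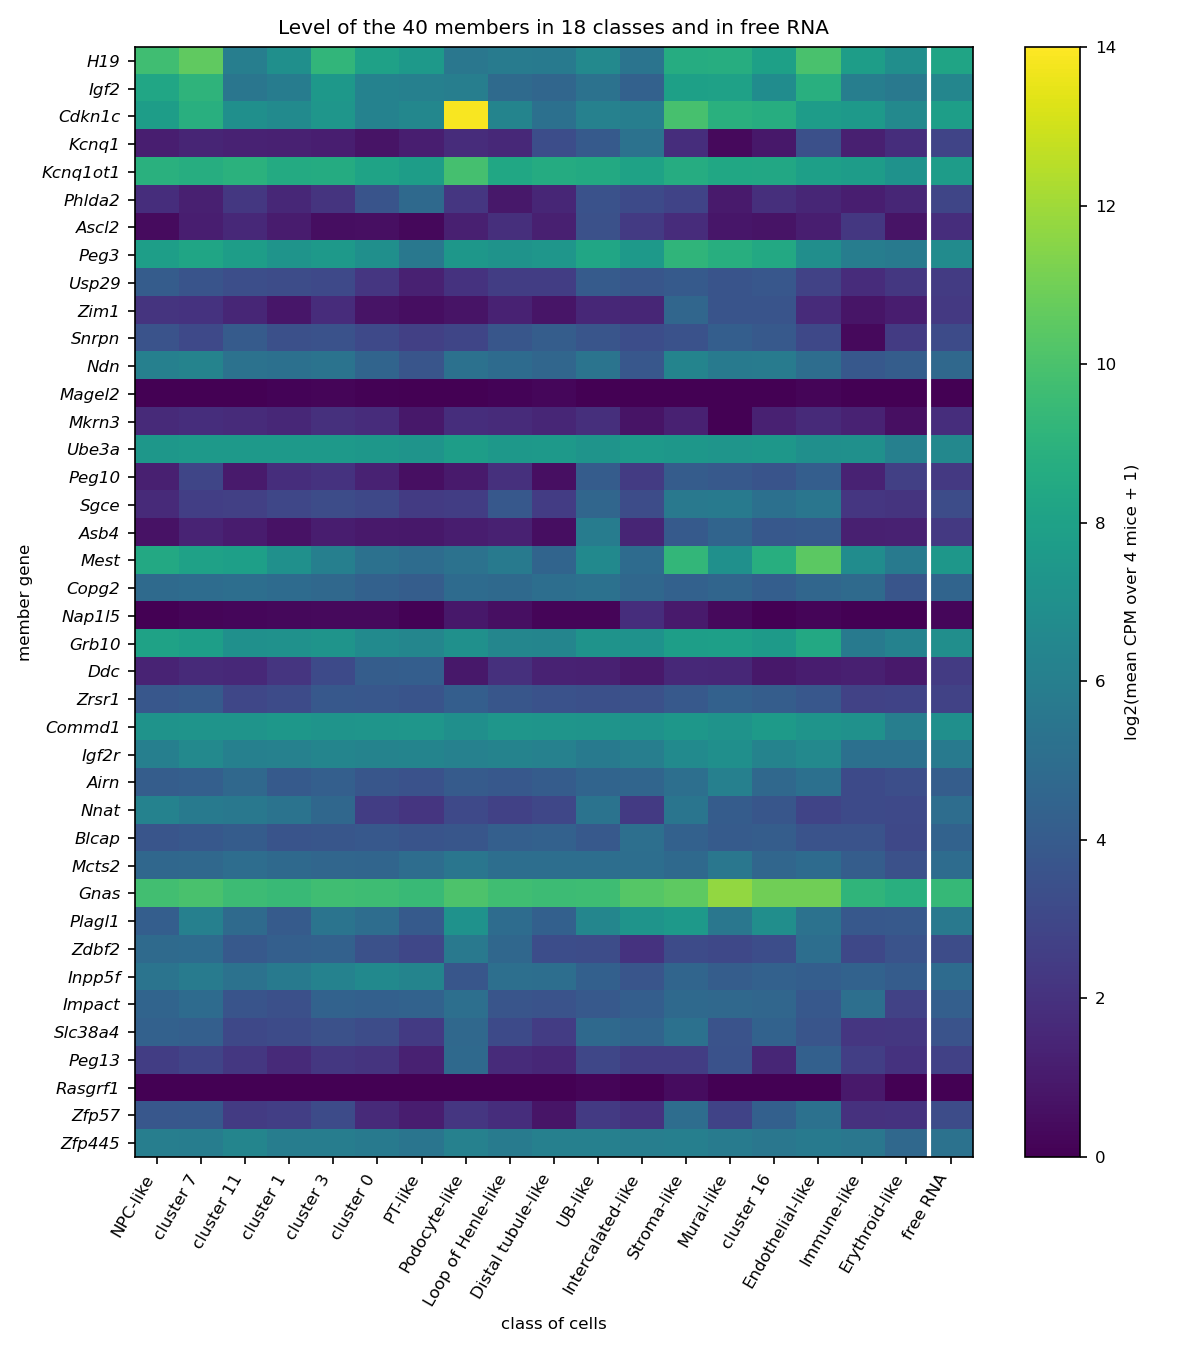
Mean level of each of the 40 genes over the 4 mice (rows) in the 18 classes and in free RNA (columns), as log2 of CPM plus 1 by colour. Cdkn1c in podocyte-like cells, at 15090.1 CPM, is the brightest square, and the rows of H19 and Igf2 rise and fall together.

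Cdkn1c, which holds cells out of the cycle as they differentiate, had the widest range. It reached 15090.1 CPM ± 4896 (SD, n = 4) in podocyte-like cells, 15.3 times the level of the next class, stroma-like cells at 988 CPM. It was lowest in distal tubule-like cells at 34.8 CPM, and it made up 81.6% of the UMIs of the 40 genes in podocyte-like cells. In CPM normalised between the mice, the ko mice were at 14723 and 11881 in those cells and the wt mice at 13994 and 23649, which overlap. Its neighbour Kcnq1ot1, a long non-coding RNA that silences genes of the paternal copy around it, was also highest in podocyte-like cells (929 CPM ± 289), with cluster 11 next at 492 CPM, and lowest in erythroid-like cells at 141 CPM. Ube3a, a ubiquitin ligase whose imprinting is known from neurons, was highest there too at 223 CPM ± 17, but the mice overlapped with those of distal tubule-like cells.

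Mest, a gene of the alpha/beta hydrolase fold known from mesoderm, was led by endothelial-like cells at 1412 CPM ± 143 (SD, n = 4), where no mouse overlapped with the next class, stroma-like cells at 620 CPM ± 105. It was lowest in distal tubule-like cells at 21.7 CPM. Grb10 was also highest in endothelial-like cells (353 CPM ± 43), with NPC-like cells next at 268 CPM and overlapping, and lowest in immune-like cells at 54.5 CPM. H19 and Igf2 shared their leading classes: cluster 7, whose leading genes include Pcp4, Lsp1 and Wt1, held 1530.5 CPM ± 429 of H19 and 558 CPM ± 246 of Igf2, and endothelial-like cells held 1018 and 458 CPM. For both genes the mice of cluster 7 and of endothelial-like cells overlapped. Both genes were lowest in intercalated-like cells, at 41.2 and 19.5 CPM.

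Stroma-like cells led for Peg3, a zinc finger gene (579.6 CPM ± 120.4, lowest in PT-like cells at 48.2 CPM), for Plagl1 (183 CPM ± 47, lowest in immune-like cells at 13.6 CPM) and for Ndn, a gene of the MAGE family (79.0 CPM, lowest in PT-like cells at 11.8 CPM). In each of the 3 the mice overlapped with those of the next class. Mural-like cells led for Gnas, which encodes the stimulatory G protein subunit (3454 CPM ± 449, next endothelial-like cells at 2005 CPM, no overlap, and lowest in erythroid-like cells at 453 CPM). They also led for Igf2r, the receptor that clears IGF2 (123 CPM), for its antisense RNA Airn (66.6 CPM) and for the sarcoglycan gene Sgce (51.2 CPM). For Igf2r and Sgce the mice overlapped with those of the next class, stroma-like cells at 103 and 49.99 CPM. For Airn they did not overlap with the next class. Airn overlaps Igf2r on the other strand. Nnat, a proteolipid gene, was highest in NPC-like cells at 72.2 CPM ± 19.5, with mice that overlap those of cluster 7, and lowest in PT-like cells at 3.51 CPM. Asb4 was highest in UB-like (ureteric bud) cells at 58.8 CPM ± 21.6, without overlap with the next class, mural-like cells at 22.0 CPM.

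The nephron tubule led for few of these genes. Inpp5f, a phosphoinositide phosphatase, was highest in cluster 0, whose leading genes include Aadat and Aqp1 (98.8 CPM ± 6.6), with PT-like cells next at 79.7 CPM and no overlap. Its lowest class was intercalated-like cells at 11.97 CPM. Among the genes under 50 CPM, and chosen after their values were seen, Phlda2 and Ddc were highest in PT-like cells, at 26.5 and 17.0 CPM. Commd1 was led by cluster 16 (198 CPM) and Zfp445 by cluster 11 (81.4 CPM), both with mice that overlap those of the next class. Zfp57 was low throughout, with 36.5 CPM in endothelial-like and 30.6 CPM in stroma-like cells and 0.754 CPM in distal tubule-like cells. Magel2, Rasgrf1 and Nap1l5 had 6, 6 and 34 UMIs in all assigned cells. Ascl2 had 507, of which 274 came from cluster 14 of mouse 3 and 50 from its UB-like cells. These 4 genes passed the filter on low counts in no class, while 36 passed it in at least 1.

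Genes that lie side by side did not always share their pattern. Over the 18 classes and the 36 genes that reached 10 CPM, the median Pearson r of the 630 pairs was 0.28 (log2 of CPM plus 1). These correlations are descriptions without a test, since the classes share mice, a library and its free RNA. H19 and Igf2 were the most alike (r = 0.95, Spearman's rho = 0.93). Mest came closest to Zfp57, which lies on another chromosome (r = 0.92), and Gnas to Airn (r = 0.89). Peg3 was close to its head-to-head neighbour Usp29 (r = 0.86) and to Zim1 (r = 0.79). Peg10 was close to Sgce (r = 0.84) and Asb4 (r = 0.88), which lie in the same domain. In contrast, Mest and its overlapping neighbour Copg2 (r = 0.02), Nnat and the gene Blcap that contains it (r = -0.08), Kcnq1 and its antisense RNA Kcnq1ot1 (r = -0.09) and Cdkn1c and Phlda2 (r = -0.15) showed no common pattern.

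**Figure D2:**
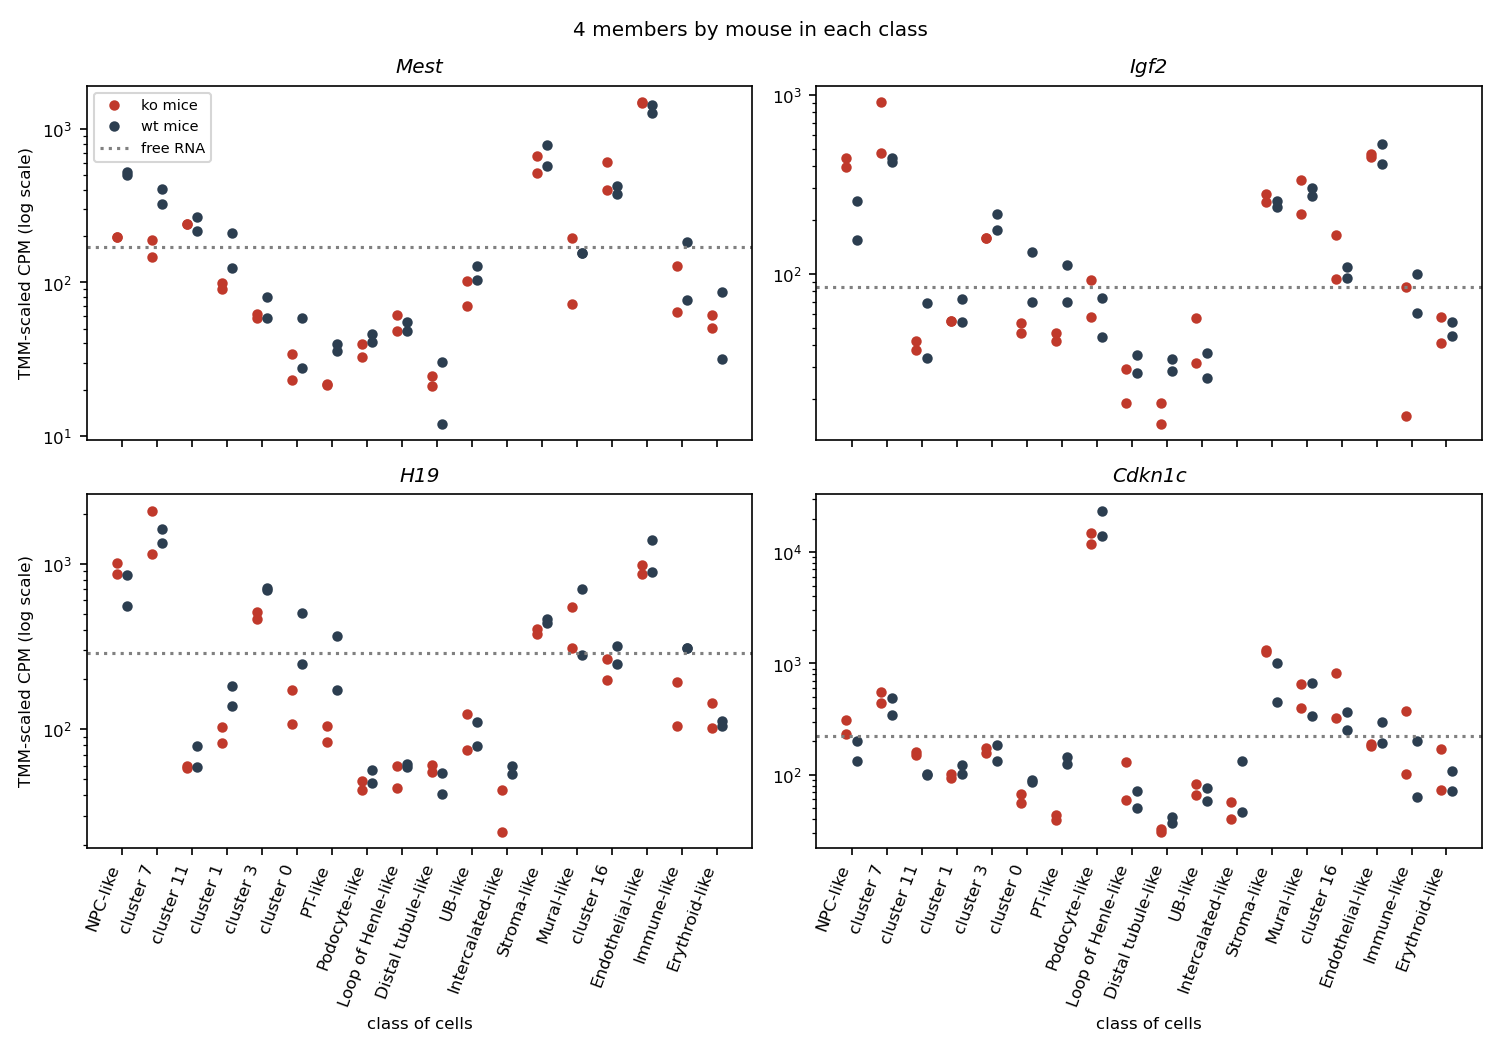
Level of Mest, Igf2, H19 and Cdkn1c (1 panel each, log axis, normalised CPM) in each class, 1 point per mouse, with ko and wt in different colours. Mest in NPC-like cells is split into ko near 198 and wt near 512 CPM, while ko and wt points overlap in stroma-like cells and both ko points lie just above the wt points in endothelial-like cells. Mest and Igf2 were not tested in intercalated-like cells and have no points there.

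The genotypes were compared in each class on the UMIs summed per mouse, with edgeR's quasi-likelihood test, 2 ko against 2 wt mice, and Benjamini-Hochberg adjustment over all genes tested in that class. Values in these comparisons are CPM normalised between the mice. In 446 tests of a gene in a class, 4 passed an adjusted p of 0.05: Mest in NPC-like cells, Cdkn1c in PT-like cells, and Peg3 and Inpp5f in cluster 11. Over the same classes 0.335% of the tests of all genes passed. Unless another choice is named, a call is one of this fit, with all 4 mice and the filter on low counts. Leaving out a wt mouse raised the calls of imprinted genes to 35 (mouse 3) and 57 (mouse 4), and those of all genes rose as well, to 6.76% and 13.2% in NPC-like and 5.7% and 15.5% in PT-like cells. An exact permutation test of a single gene in 2 against 2 mice cannot go below p = 0.333, so that such a test can call no gene here.

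In NPC-like cells Mest was lower in the ko mice. It stood at 199 and 197 CPM in the ko mice and at 499.5 and 524 CPM in the wt mice, so that both ko values lay far under both wt values. The log2 difference was -1.37 (SE 0.12, adjusted p = 0.00313), a 2.59-fold higher level in wt. The shift was spread over the cells: the median cell held 2 and 3 Mest UMIs in the ko mice against 6 and 7 in the wt mice, at median depths between 17102 and 19004 UMIs. A Mest UMI was found in 78.0% and 83.3% of ko cells and in 89.7% and 94.9% of wt cells. Mest was the only one of the 29 genes tested to pass, 3.45% of them, where 1.48% of all 10914 genes passed. NPC-like cells joined cluster 8 (led by Tmem100, Six2 and Wt1) and cluster 9 (led by Cited1 and Six2). Cluster 8 gave 34 and 36 of the 50 and 66 ko cells and 107 and 151 of the 174 and 354 wt cells, so that most cells of the ko mice and of mouse 3 came from cluster 8 and most of mouse 4 from cluster 9. Within cluster 8 the log2 difference of Mest was -1.34 (adjusted p = 0.00635) and within cluster 9 it was -1.13 (adjusted p = 0.00337). Without mouse 3 it was -1.40. It missed the threshold only without mouse 1 (log2 difference -1.39, adjusted p = 0.0644).

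Mest lies on chromosome 6 at 30723547-30748465 (GRCm38, plus strand), where its 3′ end overlaps Copg2 on the other strand. ZFP57 binds the motif TGCCGC when it is methylated. The 250 bases before a start of Mest and of Peg3, the imprinted genes with the smallest p among those lower in NPC-like cells, are shown with this motif, read on either strand (TGCCGC or GCGGCA), in capitals. They are RefSeq's starts in GRCm38.p6, given 5′ to 3′ on the strand of the gene.
Mest, chr6:30733256-30733505, plus strand: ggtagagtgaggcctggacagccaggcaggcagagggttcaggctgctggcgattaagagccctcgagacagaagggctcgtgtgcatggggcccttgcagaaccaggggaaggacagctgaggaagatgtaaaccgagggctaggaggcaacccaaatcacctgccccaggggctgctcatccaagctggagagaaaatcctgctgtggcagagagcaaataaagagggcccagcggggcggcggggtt
Mest, chr6:30737800-30738049, plus strand: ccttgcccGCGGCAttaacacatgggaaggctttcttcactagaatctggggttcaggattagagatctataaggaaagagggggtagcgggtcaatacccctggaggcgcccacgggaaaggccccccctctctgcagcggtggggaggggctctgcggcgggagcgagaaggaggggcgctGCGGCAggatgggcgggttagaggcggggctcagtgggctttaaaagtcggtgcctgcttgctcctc
Peg3, chr7:6730420-6730669, minus strand: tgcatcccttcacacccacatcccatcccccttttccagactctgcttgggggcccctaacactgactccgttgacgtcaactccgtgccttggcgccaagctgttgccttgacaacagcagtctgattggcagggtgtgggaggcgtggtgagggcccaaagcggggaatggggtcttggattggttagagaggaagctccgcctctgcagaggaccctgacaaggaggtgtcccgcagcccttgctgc
The upstream Mest start and that of Peg3 hold no TGCCGC in these windows, and the downstream Mest start holds 2. Of the 32851 starts in the table, 8.68% hold the motif within the same 250 bases and 0.874% hold 2 or more. RefSeq entries were found for 33 of the 40 genes, with 53 starts, of which 8 (of 7 genes) hold it. A match is a match of letters only, and methylation was not measured in these libraries.

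Around Mest, the other imprinted genes of NPC-like cells were separated by genotype in both directions without passing the adjusted threshold in the fit with all 4 mice. With no filter beyond 1 count, Igf2, Cdkn1c, Peg3 and Zdbf2 passed beside Mest, where 2.43% of all genes passed. The genotypes did not overlap in 21 of the 29 genes tested (10 higher and 11 lower in ko), where 40.5% of all genes did not overlap (19.6% higher and 20.9% lower), and 9 had an unadjusted p under 0.05. The median log2 difference of the 29 was -0.13, against -0.01 over all genes. Igf2 was at 444 and 398 CPM in the ko mice against 255 and 154 CPM in the wt mice (log2 difference 1.05, SE 0.22, adjusted p = 0.0548). The adjusted p of Igf2 was 0.0070 with DESeq2, and the threshold was also met with 4 other choices of cells, with no filter on low counts and without either wt mouse. It was missed with another scaling of the mice in edgeR (RLE size factors, adjusted p = 0.0570) and with cells from 2500 UMIs on (0.0646). Within cluster 8 (0.058) or cluster 9 (0.0798) it was missed as well. Without mouse 1 or mouse 2 it was also missed, at log2 differences of 0.96 and 1.12. H19 was at 1007 and 871 against 856 and 555 CPM (0.41, SE 0.18, adjusted p = 0.527), and Cdkn1c at 313 and 231 against 202 and 134 CPM (0.70, SE 0.22, adjusted p = 0.267). All 3 were thus higher in both ko mice than in both wt mice. Within cluster 8 the log2 difference was 0.99 for Igf2, 0.27 for H19 and 0.80 for Cdkn1c. Within cluster 9 these differences were 0.99, 0.63 and 0.35, and none passed in either cluster. Wt mouse 4 was the lowest in each gene, and the size of the differences turned on single mice. Without mouse 3 the log2 difference was 1.45 for Igf2, 0.76 for H19 and 1.02 for Cdkn1c, each past the threshold. Without mouse 4 it was 0.72, 0.13 and 0.42, with Igf2 and Cdkn1c past it. Cdkn1c was also at 0.46 without ko mouse 1 and at 0.45 with cells from 2500 UMIs on.

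Peg3 lay on the other side, at 187 and 174 CPM in ko against 269.8 and 287 CPM in wt (log2 difference -0.63, SE 0.14, adjusted p = 0.0676). Its log2 difference was -0.42 within cluster 8 and -0.67 within cluster 9. Grb10 was at 229.7 and 234 against 329 and 293 CPM (-0.42, SE 0.13, adjusted p = 0.276). Plagl1 was at 13.6 and 14.5 against 26.3 and 16.4 CPM (-0.57, SE 0.35, adjusted p = 0.684). None of these groups overlapped, and none passed in this fit. Peg3 passed with cells assigned by their share of tag UMIs (-0.62, adjusted p = 0.0466) and without either wt mouse, and Grb10 and Plagl1 passed without mouse 4. The difference of Plagl1 was -0.21 without mouse 3 and -0.90 without mouse 4. For the imprint-protecting pair, Zfp57 was at 9.95 and 11.4 against 18.3 and 13.2 CPM (log2 difference -0.52, adjusted p = 0.729), and Zfp445 at 49.7 and 71.6 against 68.2 and 65.3 CPM, which overlap (-0.13, adjusted p = 0.921). Chosen after their values were seen, Zdbf2 was at 17.2 and 17.5 against 48.1 and 31.8 CPM (-1.18, adjusted p = 0.140) and Inpp5f at 49.7 and 54.1 against 30.4 and 31.4 CPM (0.75, adjusted p = 0.208). Chosen in the same way, Zim1 and Usp29, the neighbours of Peg3 on either side, were both lower in ko without overlap. Zim1 was at 1.81 and 0.762 against 5.45 and 5.36 CPM (-2.08, SE 0.69, adjusted p = 0.312). Usp29 was at 9.04 and 13.7 against 23.4 and 17.6 CPM (-0.81, SE 0.34, adjusted p = 0.486). Free RNA held Zim1 at 3.996 CPM, above both ko mice and not far below both wt mice. By a rule set for levels, values near or below that of free RNA are read as background, as are the ko values of Zim1. The share of free RNA given below for NPC-like cells would bring 0.115 and 0.123 CPM to them. The size of the difference of Zim1 is uncertain. Zim1 is nevertheless counted among the genes lower in ko without overlap. The remaining 16 genes tested had log2 differences between -0.70 (Airn) and 0.43 (Blcap).

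The NPC-like cells of the genotypes also differed in markers. The 7 NPC markers summed to 321 and 425 CPM in the ko mice against 830.5 and 993 CPM in the wt mice, and none was at 0 in a mouse. The 7 renal vesicle markers, of the step that follows, summed to 2387 and 1606 against 1056 and 1222 CPM, and the 7 podocyte markers to 305 and 235 against 149 and 96.6 CPM. The part of these shifts in the values of the imprinted genes was not tested. Free RNA held Plagl1 at 50.1 CPM, above the NPC-like cells of each mouse, and Cdkn1c at 225 CPM, above those of both wt mice. The rule set for levels reads such values as background, but it compares levels and does not measure the free RNA within cells. Mest stood in free RNA at 171 CPM. Erythroid markers, which these cells should lack, stood in NPC-like cells at 2.57% to 3.09% of their free RNA level in the 4 mice. Such a share of free RNA would bring 4.40 to 5.28 CPM of Mest. It would bring 5.80 to 6.95 CPM of Cdkn1c and 1.29 to 1.55 CPM of Plagl1, below the level counted in each mouse.

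**Figure D3:**
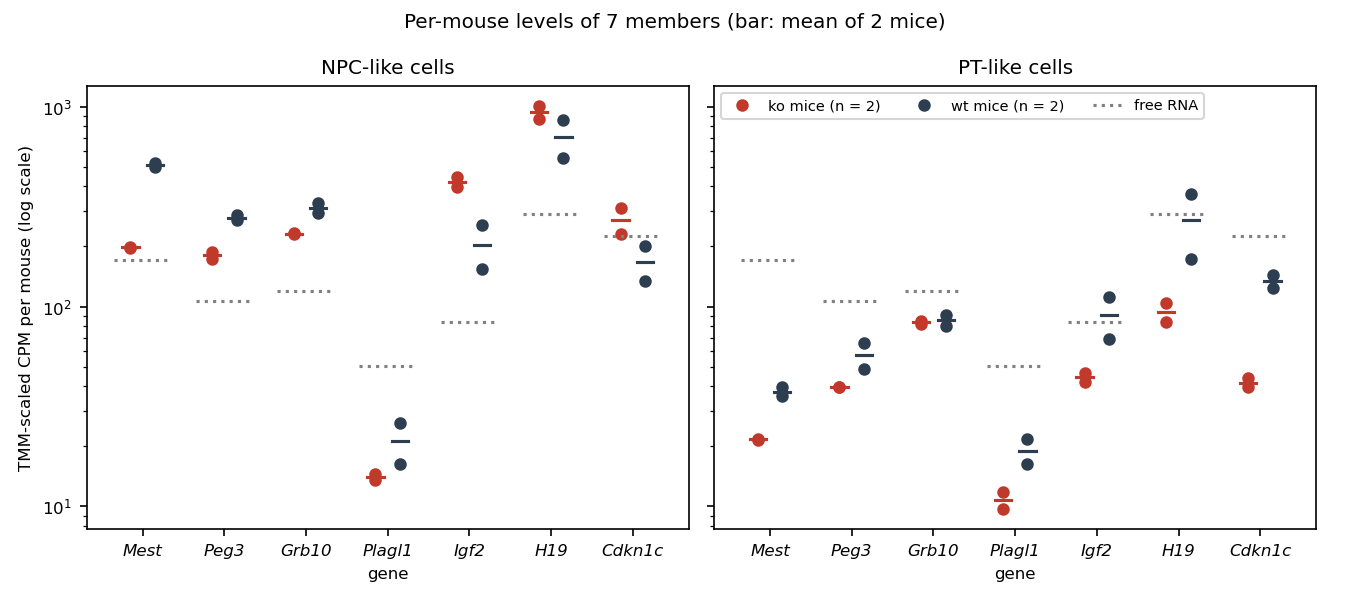
Level (normalised CPM, log axis) of H19, Igf2, Mest, Peg3, Cdkn1c, Grb10 and Plagl1 in each mouse, ko and wt in different colours, in NPC-like and PT-like cells, with the level in free RNA (CPM) as a dotted mark. H19, Igf2 and Cdkn1c lie higher in ko in the NPC-like panel and lower in ko in the PT-like panel, and Mest and Peg3 lie lower in ko in both.

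In PT-like cells it was Cdkn1c that passed, lower in the ko mice. Cdkn1c (chromosome 7, 143458339-143461050, minus strand) was at 39.4 and 44.0 CPM in the ko mice and at 144 and 124 CPM in the wt mice. The wt values lay well above both ko values, with a log2 difference of -1.68 (SE 0.15, adjusted p = 0.00201) and a 3.21-fold higher level in wt. It was 1 of 28 genes tested, 3.57%, where 0.72% of all 11531 genes passed. A Cdkn1c UMI was found in 56.0% and 56.5% of ko cells and in 73.2% and 78.3% of wt cells, at median depths between 21581 and 27990 UMIs. The median cell held 1 and 1 Cdkn1c UMIs in ko against 2 and 1.5 in wt, and the richest cell held 9 and 9 UMIs in ko against 93 and 149 in wt. The top 10% of cells held 41.1% and 42.9% of the Cdkn1c UMIs in ko and 60.5% and 59.7% in wt.

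The Cdkn1c call in PT-like cells did not hold under 2 other choices of cells. Podocytes are the class with the most Cdkn1c, and the 7 podocyte markers summed to 27.2 and 27.7 CPM in the PT-like cells of the ko mice against 68.7 and 64.2 CPM in those of the wt mice, with 130.2 CPM in free RNA and none at 0 in a mouse. The call was lost when cells were assigned by their share of tag UMIs (-0.53, adjusted p = 0.523) and with cells from 2500 UMIs on (-1.17, adjusted p = 0.0671). With the cells marked as doublets removed it stayed (-1.03, adjusted p = 0.0261), and without mouse 3 it was -1.57. The level of free RNA was 225 CPM, above each of the 4 mice, and the rule set for levels reads such values as background. The share of free RNA estimated next would bring 12.9 and 4.71 CPM of Cdkn1c in ko and 35.8 and 31.5 CPM in wt. Erythroid markers in PT-like cells stood at 5.71% and 2.09% of their free RNA level in ko and 15.9% and 13.97% in wt. With that share of free RNA taken off, Cdkn1c was at 26.3 and 39.1 CPM in ko and 105 and 94.2 CPM in wt.

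The other growth genes of PT-like cells did not pass the adjusted threshold in the fit with all 4 mice, and Grb10 overlapped between the genotypes. Other choices with all 4 mice called some of them: H19 passed with kmeans in the assignment of cells (-1.85, adjusted p = 0.00701), Igf2 with DESeq2 (-1.03, adjusted p = 0.0122), and H19, Igf2 and Mest with no filter beyond 1 count. Of all genes, 0.991%, 1.06% and 3.47% passed with these choices, in that order. H19, Igf2 and Mest also passed without either wt mouse, Peg3 without mouse 3 and Plagl1 without mouse 4. H19 was at 83.2 and 104 CPM in the ko mice against 366 and 173 CPM in the wt mice (log2 difference -1.52, SE 0.30, adjusted p = 0.0805), with mouse 3 far above the rest, and the difference was -0.89 without mouse 3 and -1.96 without mouse 4. Igf2 was at 41.9 and 46.4 against 112 and 69.2 CPM (-1.02, SE 0.22, adjusted p = 0.0938) and -0.65 without mouse 3. Mest was at 21.6 and 21.7 against 39.5 and 35.6 CPM (-0.79, SE 0.17, adjusted p = 0.0912), and at -0.41 (adjusted p = 0.541) with the cells marked as doublets removed. With the same share of free RNA taken off, Mest was at 11.7 and 18.1 CPM in ko and 11.5 and 12.2 CPM in wt, which overlap. H19 and Igf2 still did not overlap between the genotypes, with H19 at 66.3 and 98.2 against 313 and 135 CPM and Igf2 at 36.9 and 44.6 against 95.99 and 58.4 CPM.

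Peg3 was at 39.4 and 39.6 against 48.7 and 65.4 CPM (-0.54, adjusted p = 0.249) and Plagl1 at 9.71 and 11.8 against 21.8 and 16.2 CPM (-0.80, adjusted p = 0.234). With the share of free RNA taken off both overlapped, Peg3 at 33.1 and 37.3 against 30.8 and 51.5 CPM and Plagl1 at 6.80 and 10.7 against 13.4 and 9.44 CPM. Without mouse 4 the difference of Peg3 was -0.30. Grb10 overlapped, at 84.8 and 82.2 against 90.6 and 79.8 CPM (-0.02, adjusted p = 0.972), and with the share of free RNA taken off it was higher in ko without overlap, at 77.6 and 79.5 against 69.9 and 64.2 CPM. Zfp445 overlapped, at 44.0 and 38.6 against 46.7 and 42.8 CPM (-0.11, adjusted p = 0.850). Zfp57 did not pass the filter on low counts in PT-like cells. Of the 28 genes tested, 15 did not overlap (3 higher and 12 lower in ko), where 42.8% of all genes did not (21.6% higher and 21.2% lower), and 9 had an unadjusted p under 0.05. With the share of free RNA taken off, 4 of the 28 were lower without overlap (Cdkn1c, H19, Igf2 and Zdbf2) and 7 higher. This step was run for the imprinted genes only, so that no share over all genes stands beside these counts. This step takes erythroid markers as a measure of free RNA, and they cannot be told apart from RNA of red cells that stayed with a cell. Their share varied between mice of a genotype in other classes (3.13% and 50.3% in the wt mice of cluster 16), and some low genes came out below 0 (Nnat at -1.44 CPM in mouse 3), so that the values after it are uncertain. In NPC-like cells the same step left 10 higher and 11 lower, again without a share over all genes. The 20 genes tested but not given above had log2 differences between -1.23 (Nnat) and 0.83 (Airn). The median over the 28 was -0.15, against -0.01 over all genes. Mest, Cdkn1c, Peg3, Plagl1 and Grb10 lay below their free RNA level in the PT-like cells of each mouse. Free RNA held H19 at 289 CPM and Igf2 at 83.9 CPM. Both lay below these levels in the PT-like cells of the ko mice and of mouse 4, and above them in mouse 3. The erythroid markers, of red cells, summed to 818 and 299.5 CPM in the PT-like cells of ko and 2275 and 2002 CPM in those of wt, and the part of this in the differences was not tested beyond the values given.

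**Figure D4:**
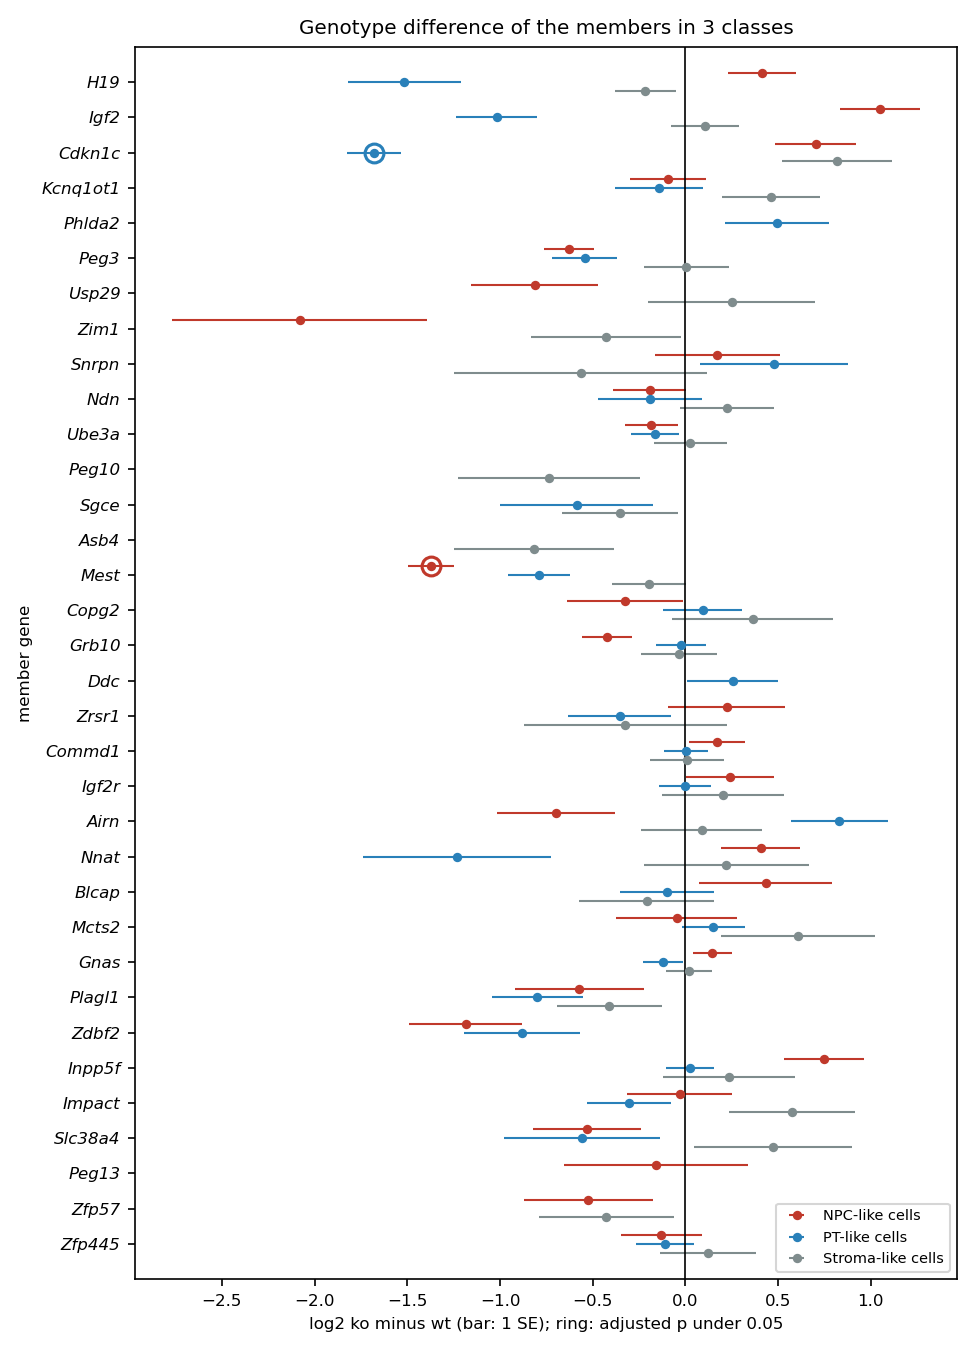
Log2 difference of ko minus wt with its SE for each imprinted gene tested in NPC-like, PT-like and stroma-like cells. The ringed points, with an adjusted p under 0.05, are Mest in NPC-like cells at -1.37 and Cdkn1c in PT-like cells at -1.68.

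Cluster 11, led by Spon1, Sim2, Fgf8 and Epha4, held 4 raised markers of the S-shaped body list but did not take its name. Peg3 was lower in the ko mice there, at 174 and 149.8 CPM against 267 and 291 CPM (log2 difference -0.79, SE 0.13, adjusted p = 0.0188), with no overlap. Peg3 lies on chromosome 7 at 6703892-6730431 (minus strand). Inpp5f (chromosome 7, 128611328-128696425, plus strand) was higher in the ko mice, at 45.1 and 64.4 CPM against 20.9 and 20.1 CPM (log2 difference 1.44, SE 0.25, adjusted p = 0.0243). These were 2 of 25 genes tested, where 0.621% of all 9823 genes passed, and 8 of the 25 did not overlap, where 38.9% of all genes did not. Without mouse 3 both passed, Peg3 at -0.86 and Inpp5f at 1.47. Without mouse 2 neither passed. Without mouse 1 Inpp5f alone passed, and with DESeq2 Peg3 alone did. Free RNA held 106 CPM of Peg3 and 28.9 CPM of Inpp5f, so that the wt level of Inpp5f lay below it.

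Mest did not differ in cluster 11 (log2 difference 0.00), where Trim28 was lower in ko, and moved unevenly through the other classes. It was at 146 and 190.4 against 326 and 409 CPM in cluster 7 (-1.12, adjusted p = 0.143), a difference that DESeq2 called, and in cluster 1, whose leading genes are those of dividing cells, its log2 difference was -0.81 (adjusted p = 0.415). Over the 17 classes in which Mest was tested, the genotypes did not overlap in 6 with lower and in 1 with higher values in ko, and overlapped in 10. Inpp5f did not overlap in 7 of 14 classes, each time higher in ko, and Zdbf2 in 9 of 12 classes, each time lower in ko. Over all genes and classes, 36.3% of tests did not overlap, 18% higher and 18.4% lower in ko. The classes share the 4 mice, so that these counts are not independent, and both genes were picked out after their values were seen.

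In the stroma-like, endothelial-like and UB-like classes, outside the deleted lineage, no imprinted gene passed in the fit with all 4 mice. In stroma-like cells 0 of 30 and in endothelial-like cells 0 of 32 passed in edgeR and in DESeq2, where 0% of all genes passed in edgeR, with 1 and 0 of the imprinted genes at an unadjusted p under 0.05. In stroma-like cells 6 of the 30 did not overlap, where 31.5% of all genes did not. In UB-like cells 0 of 32 passed in edgeR, with 2 at an unadjusted p under 0.05, where 0.0305% of all genes passed. There 14 of the 32 did not overlap (7 higher and 7 lower in ko), where 31.6% of all genes did not. In stroma-like cells, in genes chosen after their values were seen, Mest was at 519 and 667 CPM in ko against 574 and 784 CPM in wt (log2 difference -0.20), H19 at 376 and 403 against 466 and 439 CPM (-0.22) and Igf2 at 252 and 278 against 255 and 237 CPM (0.11). Mest and Igf2 overlapped, and H19 was lower in both ko mice without passing. Cdkn1c was at 1308 and 1258 against 1007 and 448 CPM (0.82, SE 0.30, adjusted p = 0.9995), with the wt mice far apart, and the difference was 1.53 without mouse 3 and 0.36 without mouse 4. It passed without mouse 3 and with no filter beyond 1 count (adjusted p = 0.0018). With no filter Ascl2 passed in UB-like cells, where mouse 3 held 50 UMIs and the others 2 to 5. Without mouse 3, Igf2r and Slc38a4 passed in stroma-like cells, and without mouse 4 Kcnq1ot1 passed there, H19, Cdkn1c and Zdbf2 in endothelial-like cells and Asb4 and Ascl2 in UB-like cells. Without a wt mouse the share of all genes that passed rose as well in stroma-like and endothelial-like cells. Without mouse 4 it lay above that of the imprinted genes in stroma-like cells. With no filter beyond 1 count, 0.507% of all genes passed in stroma-like cells. For UB-like cells these shares were not computed. In endothelial-like cells, the class with the most Mest, it was at 1479 and 1502 against 1281 and 1433 CPM (0.14, adjusted p = 0.934).

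Whether a genotype difference varied between classes was tested as an interaction in edgeR with the mouse as a block. The difference of Mest was larger in NPC-like than in stroma-like cells, by -1.19 on the log2 scale (SE 0.18, adjusted p = 0.0176, where 0.241% of all genes passed). Between PT-like and stroma-like cells the differences of Cdkn1c (-2.58, SE 0.23, adjusted p = 2.0e-08), H19 (-1.20, SE 0.24, adjusted p = 0.0084) and Igf2 (-1.08, SE 0.24, adjusted p = 0.0185) varied, where 0.519% passed. The same 3 genes varied between NPC-like and PT-like cells: Igf2 by 2.06 (SE 0.17, adjusted p = 5.2e-05), Cdkn1c by 2.38 (SE 0.21, adjusted p = 6.0e-05) and H19 by 1.85 (SE 0.19, adjusted p = 0.00022), where 0.892% passed. Their ko values were the higher ones in NPC-like cells and the lower ones in PT-like cells. These 3 tests share their classes and mice. Several of these calls turned on a single mouse. Mest was lost without mouse 2 (adjusted p = 0.213) and was at -1.001 without mouse 3. Between PT-like and stroma-like cells, H19 was lost without mouse 1 (0.083) and fell to -0.70 without mouse 3, and Igf2 was lost without mouse 1 (0.198) or mouse 2 (0.106). Between NPC-like and PT-like cells, H19 was lost without mouse 1 (0.0528). Cdkn1c passed in both of its comparisons, and Igf2 between NPC-like and PT-like cells, whichever mouse was left out.

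Among the other genes of imprint maintenance, none passed the test in NPC-like or PT-like cells. Of a list of 26, among them the methyltransferase genes Setdb1 and Dnmt1, 23 were tested in NPC-like and 22 in PT-like cells, and Trim28 alone passed in each, lower in ko, where 1.48% and 0.72% of all genes passed. The list's median log2 difference was -0.14 and -0.10, against -0.01 over all genes in each class, and 1 and 2 of its genes had an unadjusted p under 0.05. A further list of 37 imprinted genes outside Dlk1-Dio3 had 21 tested in each of the classes, with 0 passing in NPC-like cells in edgeR (1 at an unadjusted p under 0.05) and Herc3, a HECT-type ubiquitin ligase gene, passing in PT-like cells. Herc3 was higher in the ko mice, at 29.1 and 28.9 CPM against 9.67 and 11.4 CPM (log2 difference 1.44, SE 0.20, adjusted p = 0.0239), and was at 1.34 without mouse 3, but missed the threshold without mouse 1 or mouse 2, with cells assigned by their share of tag UMIs (1.04, adjusted p = 0.0555) and with cells from 2500 UMIs on (1.06, adjusted p = 0.0591). It contains Nap1l5 on the other strand, which had too few counts for a test.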

How the data were processed

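The gene expression and tag libraries of a single pool, with kidneys of 2 Trim28Δ/Δ and 2 Trim28f/f mice under the 4 tags listed, were analysed. The 6 bulk samples were not analysed here. The authors counted reads with Cell Ranger (6.0.0 by the submitters' processing notes, another version by the matrix header) and deposited UMI counts per gene, tag and barcode, without normalization or selection of cells. The notes also name the build GRCm38 (mm10), without a role. Gene positions are from GENCODE for GRCm38.

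Barcodes with at least 6891 UMIs (the order-of-magnitude rule for 24000 expected cells), 200 genes and at most 10% mitochondrial UMIs were called cells. HTODemux of Seurat 5.3.0 (quantile 0.99) assigned 6837 of 19272 cells to the 4 named mice, fewer than the study analysed, and 6667 cells that carried more than 1 tag were removed as doublets. A further 4315 cells on 4 unlisted tags and 1453 without a tag were left out. Of those assigned, Scrublet marked 7.12%, which were kept. The cells were clustered after SCTransform (2984 variable genes without the members, 30 components, resolution 0.8). A cluster could take the name of the cell type with the best marker score (at least 0.5, at least 3 markers raised 1.5-fold). At least 1 marker had also to be among its 10 leading genes. The thresholds were set after clusters had been seen, so names can differ from the study's. UMIs were summed per mouse and class and tested with edgeR 4.0.16 (filterByExpr, TMM, quasi-likelihood test, Benjamini-Hochberg over all genes, threshold 0.05). SEs are the log2 difference divided by the square root of F. Alternatives were RLE size factors, DESeq2 1.42.0, no filter beyond 1 count, leaving out each mouse, removal of Scrublet-marked cells, kmeans in HTODemux, assignment by share of tag UMIs, at least 2500 UMIs and clustering with the members. The alternatives by cluster 8 or 9 and the use of erythroid markers to gauge free RNA, were added after the data were seen, and 1 further choice of PT-like cells is not reported here.

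The members and lists were chosen with earlier results of these data known. Values per mouse are given for H19, Igf2, Mest, Peg3, Cdkn1c, Grb10, Plagl1, Trim28, Zfp57 and Zfp445 in NPC-like and PT-like cells and for each member that passed the test in a class, and levels across classes for members with at least 50 CPM in a class. Herc3 is given as the gene of the further list that passed in PT-like cells. Values outside this rule (single genes in other classes, levels under 50 CPM) were chosen after values were seen.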

Additional observations from a re-analysis of the deposited data

Results flagged for a closer look

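In 7 cases the difference between the genotypes varied between a pair of classes in the interaction test of edgeR, with Benjamini-Hochberg adjustment. Mest differed between NPC-like and stroma-like cells, with a log2 difference of differences of -1.19 (adjusted p = 0.0176), and its ko values were below both wt values in NPC-like cells and overlapped with them in stroma-like cells. Between PT-like and stroma-like cells the value was -2.58 for Cdkn1c (adjusted p = 2.0e-08), -1.20 for H19 (adjusted p = 0.0084) and -1.08 for Igf2 (adjusted p = 0.0185). The call of Mest was lost without mouse 2, that of H19 between PT-like and stroma-like cells without mouse 1 (adjusted p = 0.083, and a value of -0.70 without mouse 3) and that of Igf2 there without mouse 1 (0.198) or mouse 2 (0.106). Between NPC-like and PT-like cells the value was 2.38 for Cdkn1c (adjusted p = 6.0e-05), 2.06 for Igf2 (adjusted p = 5.2e-05) and 1.85 for H19 (adjusted p = 0.00022, lost without mouse 1 at 0.0528), and in each of these 3 genes both ko mice lay above both wt mice in NPC-like cells and below them in PT-like cells. Beside the last 6 values stand the podocyte and erythroid markers, which were higher in wt PT-like cells, and the podocyte and renal vesicle markers, which were higher in ko NPC-like cells. Their part in these differences was not tested. The interactions were run on the main choice of cells only, and not on the other choices that lost the Cdkn1c call in PT-like cells.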

How the results depend on the processing

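No paired analysis was possible because the ko mice carry the numbers 1 and 2 and the wt mice 3 and 4, with none shared. Leaving out a mouse left 1 sample in a genotype, assumed to vary like the other pair. Over all classes, leaving out a wt mouse moved the counts more than any other choice. Leaving out a ko mouse moved them less than the choice of no filter did. Without a wt mouse the share of all genes that passed rose as well in each class and pair of classes named below. The number of members that passed ranged over these 4 fits from 0 to 10 in NPC-like cells (1 with all mice), from 1 to 7 in PT-like cells (1), from 0 to 3 in stroma-like cells (0), from 0 to 4 in cluster 11 (2) and from 0 to 3 in endothelial-like cells (0). Over all 18 classes it ranged from 2 to 57 (4 with all mice), with 35 without mouse 3 and 57 without mouse 4. The number whose effect varied ranged from 0 to 4 between NPC-like and stroma-like cells (1), from 1 to 5 between PT-like and stroma-like cells (3) and from 2 to 6 between NPC-like and PT-like cells (3). In NPC-like cells 2 members passed with DESeq2, with Scrublet-marked cells removed, with kmeans and with clustering that used the members, 3 passed with assignment by share of tag UMIs and 5 with no filter beyond 1 count. Of all genes, 0.88%, 1.64%, 1.73%, 1.8%, 2.06% and 2.43% passed there with these choices, in that order. In PT-like cells 2 passed with DESeq2 and with kmeans, 4 with no filter, and 0 with assignment by share of tag UMIs and with at least 2500 UMIs. In that order, 1.06%, 0.991%, 3.47%, 0.404% and 0.457% of all genes passed there. In stroma-like cells 1 passed with no filter, in cluster 11 1 passed with DESeq2, and over all classes 24 passed with no filter. The share of all genes was 0.507% in that fit of stroma-like cells and 0.346% in that of cluster 11. With no filter it was not computed over all classes. The cause of these shifts was not tested. Cluster 11 was not followed where cells were clustered anew, since cluster numbers then differ.

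Among single values, 236 of 260 kept their direction and side of the threshold under alternatives other than leaving out a mouse, 15 passed newly, 5 no longer passed, 3 turned and 1 level moved by more than its SD. Leaving out a mouse kept 99 of 132, while 18 passed newly, 11 no longer passed and 4 turned. Values that turned did not pass the test in any of these fits. They were Zfp445 in NPC-like cells (-0.13 with all mice, between -0.43 and 0.093 without a mouse and 0.16 in cluster 9 alone), Grb10 in PT-like cells (-0.02, between -0.12 and 0.067 without a mouse, with 0.00078 without mouse 2, and 0.048 with Scrublet-marked cells removed) and Mest in stroma-like cells (-0.20, between -0.40 and 0.052 without a mouse and 0.029 with kmeans). The level that moved was that of Ube3a in podocyte-like cells, at 195.7 CPM after TMM scaling. With 2 mice a genotype, a difference that missed the threshold is not shown to be absent.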

Other observations

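Grouped by the parental copy they are known to be read from, a grouping made after the values had been seen, the paternally expressed members of PT-like cells did not overlap between the genotypes in 10 of 15 genes tested, 8 of them lower and 2 higher in ko, with a median log2 difference of -0.54. With the share of free RNA that erythroid markers gave taken off, a share that was higher in wt than in ko PT-like cells, 2 of the 15 (Igf2 and Zdbf2) were lower and 3 higher without overlap. Free RNA and RNA of red cells that stayed with a cell cannot be told apart in that share. After this step no share over all genes was computed. The 5 maternally expressed ones tested there had 2 lower and 0 higher, and with that share taken off 2 lower and 1 higher (Grb10). In NPC-like cells 7 of 16 paternally expressed members were lower and 4 higher without overlap, with a median log2 difference of -0.18, and of 5 maternally expressed ones 2 were lower and 2 higher. The 2 lower ones were Grb10 and Zim1, and Zim1 lay below its free RNA level in both ko mice. Among other named classes of the deleted lineage, podocyte-like cells had 4 of 10 paternally expressed members lower and 1 higher (median -0.35). Loop of Henle-like cells had 3 of 16 lower and 2 higher (median -0.03). Distal tubule-like cells had 3 of 12 lower and 3 higher (median 0.04). In stroma-like cells 3 of 16 paternally expressed members were higher and 0 lower, with a median of 0.10. Of 6 maternally expressed ones there, 1 was higher and 2 were lower. In UB-like cells, also outside the deleted lineage, 4 of 18 paternally expressed members were higher and 6 lower, with a median of 0.09. In endothelial-like cells 3 of 18 were higher and 2 lower, with a median of -0.02. Over all genes, 42.8% did not overlap in PT-like and 40.5% in NPC-like cells. That share was 31.5% in stroma-like (14.5% higher and 16.9% lower), 31.6% in UB-like and 34.5% in endothelial-like cells. It was 35.1% in podocyte-like, 37.5% in loop of Henle-like and 35% in distal tubule-like cells. Zdbf2, read from the paternal copy, was lower in ko without overlap in 9 of the 12 classes in which it was tested, with a median log2 difference over these classes of -0.67, and passed in none of them in the fit with all 4 mice and the filter on low counts. It passed in NPC-like cells and cluster 1 with no filter beyond 1 count and without mouse 3, and in these and in cluster 3 and endothelial-like cells without mouse 4.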
